A study of Mus musculus with 5 samples.

Results

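*Cxcl1*, *Cxcl2* and *Cxcl5* encode secreted chemokines that attract neutrophils, and mRNA of each was several-fold more abundant in *Irf8*-OE bone marrow-derived dendritic cells (BMDCs) than in control BMDCs. Mean normalized counts were 4.53-fold higher for *Cxcl1*, 5.02-fold higher for *Cxcl2* and 5.82-fold higher for *Cxcl5*. These 3 genes were taken by symbol from the 1355 genes that the authors listed as differing between the same 2 groups of samples, so they were selected on the authors' fold change and adjusted p-value for this very difference, which is given here as a description without a test. Every gene of the list had passed the authors' thresholds, and genes outside it were not analysed here.

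The chemokines encoded by these genes carry a glutamate-leucine-arginine motif before their first cysteines and bind CXCR2, a G protein-coupled receptor that neutrophils carry at a high level. Binding draws neutrophils along a gradient of the ligand out of the blood into inflamed tissue. In macrophages, dendritic cells, fibroblasts and endothelium the genes are classical early targets of NF-κB downstream of Toll-like receptors, IL-1, IL-17 and TNF-α, and their short-lived mRNAs carry AU-rich elements that tristetraprolin binds. CXCL1 (KC) and CXCL2 (MIP-2) are close relatives, whereas CXCL5 (LIX) is also known from epithelial cells and platelets. IRF8 is a transcription factor of the interferon regulatory factor family that type 1 conventional dendritic cells need for their development.

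The data were RNA-seq of 3 *Irf8*-OE and 2 control BMDC samples from C57BL/6 mice labelled as 8-week-old males. *Irf8*-OE mice combined *Irf8* CAG-LSL, a knock-in in which a CAG promoter and a loxP-flanked stop precede a Flag-tagged *Irf8*, with *Itgax* Cre, which is active in CD11c+ cells and therefore neither in every bone marrow cell nor in dendritic cells alone. The control genotype is wild type in the sample labels and *Irf8* CAG-LSL in the study's text, so that both groups may carry the knock-in. Marrow of tibias and femurs was grown with 5 ng/ml GM-CSF and 200 ng/ml Flt3L, the growth factors of myeloid and dendritic cells, replated on day 9 and collected on days 15 to 16. The study calls the sequenced cells activated, and the labels name TNF-α at 20 ng/ml for stimulation without saying which samples received it. Whether the samples came from separate animals is not given in the sources used here, so the spread between them may be technical.

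Levels are normalized counts, in which a gene's reads were divided by the size factor of the sample. Reads over the listed genes, which are not the depth of the libraries, numbered 901597 and 1062127 in control samples and 646123 to 689416 in *Irf8*-OE samples. *Irf8*, the gene targeted for overexpression, had 2835 and 2747 normalized counts in the controls and 7141, 6519 and 6021 in *Irf8*-OE, a log2 difference of 1.23 ± 0.08 (SE). *Xist*, which is transcribed from the inactive X chromosome of females, was at 10772 to 13476 normalized counts in *Irf8*-OE and did not exceed 1.12 in control samples. The genes *Ddx3y*, *Eif2s3y*, *Kdm5d* and *Uty* of the Y chromosome were at 484 to 1385 in control samples and without a read, at 0, in *Irf8*-OE. The libraries labelled *Irf8*-OE thus go against the male label, and genotype and sex cannot be told apart in any value below. The dendritic cell label could be checked by 5 of 18 markers only, among which *Siglech* (0 reads in both controls), *Itgae* and *Ly75* were higher in *Irf8*-OE and *Cd24a* and *Cd209a* lower. The 5 summed to 10944 to 11668 normalized counts in control samples and 5953 to 6630 in *Irf8*-OE samples. Most of that sum was *Cd24a*, with means of 10057 in the controls and 3855 in *Irf8*-OE. *Itgax*, *Flt3*, *Zbtb46*, *Batf3*, *Clec9a* and *Xcr1* are not listed and were not analysed here.

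The 3 genes lie on the plus strand of chromosome 5 in the mouse genome (mm10, the same coordinates in GENCODE M21), within 146.6 kb. *Cxcl5* (ENSMUSG00000029371) is at chr5:90759360-90761624, *Cxcl1* (ENSMUSG00000029380) at chr5:90891241-90893115 and *Cxcl2* (ENSMUSG00000058427) at chr5:90903871-90905938. *Cxcl1* and *Cxcl2* are neighbours 10.8 kb apart, and *Cxcl5* lies 129.6 kb upstream of *Cxcl1*. No annotated gene overlaps any of the 3, so overlapping transcription units did not share their reads.

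The promoters of *Cxcl1* and *Cxcl2* are shown because they share a stretch that includes an NF-κB-like motif at nearly the same distance from the gene starts given above. RefSeq promoter sequence (GRCm38.p6) was available for these 2 of the 3 genes. The 100 bases before each gene start, on the plus strand and outside the annotated exons, are given 5′ to 3′ from chr5:90891141-90891240 for *Cxcl1* and from chr5:90903771-90903870 for *Cxcl2*. Capitals mark the shared GGGAATTTCC and a TATA-like ATAAAA.
Cxcl1: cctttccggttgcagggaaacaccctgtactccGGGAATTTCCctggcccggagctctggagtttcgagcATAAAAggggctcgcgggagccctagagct
Cxcl2: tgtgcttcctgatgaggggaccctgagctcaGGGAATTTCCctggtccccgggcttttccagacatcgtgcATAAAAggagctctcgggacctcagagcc

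The motif GGGAATTTCC begins 67 bases before the *Cxcl1* gene start and 69 bases before that of *Cxcl2*, and ATAAAA begins 30 and 29 bases before. The RefSeq starts lie 4 bases further on for *Cxcl1* and 28 for *Cxcl2*. Counted from them, GGGAATTTCC begins 71 and 97 bases before and ATAAAA 34 and 57, so the near-equal distance depends on the annotation. The longest run that both windows share was GGGAATTTCCCTGG, 14 bases long, which 2 of 32851 RefSeq promoters hold, those of *Cxcl1* and *Cxcl2*. Searched on both strands over 250 bases before to 50 bases after each start, GGGAATTTCC itself was in 0.0883% of these promoters and belonged to 29 genes. Among listed genes with a promoter sequence, 3 of 888 had it. They were *Cxcl1*, *Cxcl2* and *Ccr3*, an eotaxin receptor gene whose log2 difference was of the other sign, at −2.63 ± 0.80 (SE). The size of the *Ccr3* difference is uncertain, since it rested on 2, 24 and 8 reads in *Irf8*-OE. The promoter of *Cxcl3*, a CXCR2 ligand gene that is not listed, also had the motif. This motif was chosen after the sequences were seen.

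A looser NF-κB-like motif, GGG and CC with any 5 bases between them, which includes GGGAATTTCC, was in the promoters of *Cxcl1* and *Cxcl2* and in 50.8% of all promoters, so its presence distinguishes little. ATAAAA was in 18.5%. A motif of GAAA, any 2 bases and GAAA, resembling an interferon-stimulated response element, and a motif of GGAA, any 2 bases and GAAA, resembling a composite ETS-IRF element, were in 3.44% and 2.72% of promoters and matched neither window. TGANTCA, resembling an AP-1 element, was in 7.81% and TTCNNNGAA, resembling a STAT element, in 8.30%, with no match in either. TTNCNNAA, resembling a C/EBP element, was in 40.7% and matched *Cxcl2* once, outside the 100 bases shown. Such matches describe letters and not bound sites.

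*Cxcl2* had the highest counts of the 3 in every sample, with 737 and 748 normalized counts in the controls and 3199, 3615 and 4365 in the *Irf8*-OE samples. The controls differed little from each other, and the lowest *Irf8*-OE sample was 4.27 times the higher control. The means were 743 ± 7.95 (SD, n = 2) and 3726 ± 591 (SD, n = 3), and the log2 difference on log2(normalized counts + 1) was 2.31 ± 0.12 (SE). Ranked by mean normalized counts, not divided by length, among the 1355 listed genes, *Cxcl2* was at place 182 in the controls and at place 37 in *Irf8*-OE.

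*Cxcl5* had 247 and 296 normalized counts in the controls and 1373, 1534 and 1833 in *Irf8*-OE. Here too the groups stood apart, with the lowest *Irf8*-OE sample at 4.64 times the higher control. The means were 271 ± 34.2 (SD, n = 2) and 1579.8 ± 234 (SD, n = 3), and the log2 difference was 2.53 ± 0.14 (SE), the largest of the 3 genes. Its place by mean moved from 338 to 91.

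*Cxcl1* had the lowest counts, with 110.1 and 124 normalized counts in the controls and 442, 539.6 and 607 in *Irf8*-OE. The lowest *Irf8*-OE sample was 3.57 times the higher control. The means were 117 ± 9.65 (SD, n = 2) and 529 ± 82.9 (SD, n = 3), and the log2 difference was 2.16 ± 0.15 (SE). Its place by mean moved from 521 to 226.

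**Figure D1:**
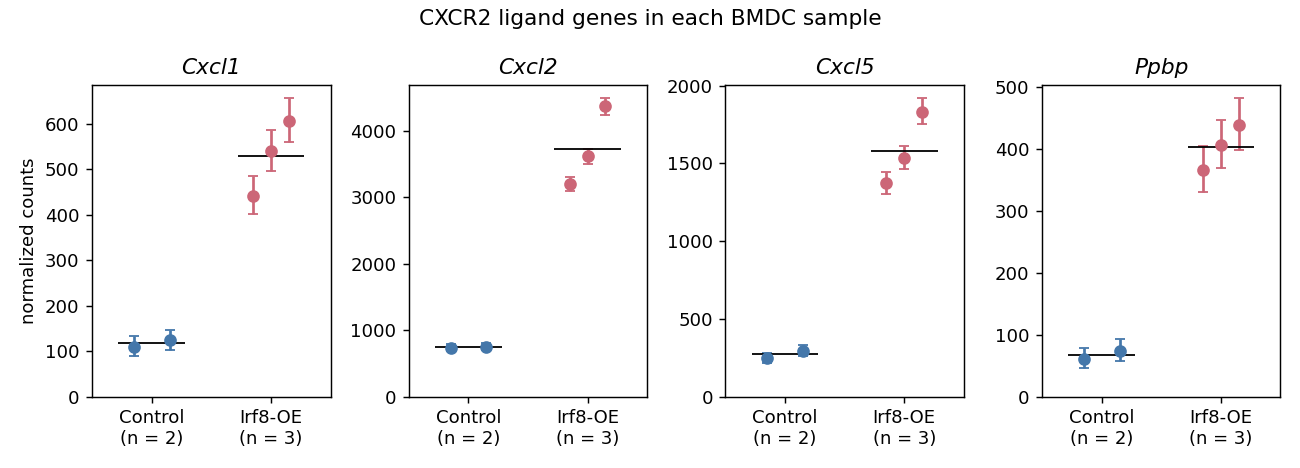
Normalized counts of *Cxcl1*, *Cxcl2*, *Cxcl5* and the neighbouring CXCR2 ligand gene *Ppbp* in each sample, with the y axis of each panel starting at 0. Points are samples, bars are exact 95% Poisson intervals that cover counting error only, and horizontal lines are group means. The *Irf8*-OE samples lie above both controls in every panel, and replicate 3 is the highest, at 607 for *Cxcl1* and 4365 for *Cxcl2*.

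The groups did not overlap for any of the 3 genes, nor for 100% of the listed genes, and all 3 genes passed an adjusted p-value under 0.05 (limma) with a log2 difference above 1, as did 58.1% of the listed genes in the higher direction (41% were called lower, and 99.1% in either direction). Since the list holds genes already selected for this contrast, nothing about the 3 genes can be read from these counts. Among the 787 genes called higher, *Cxcl5* was at place 233, *Cxcl2* at 269 and *Cxcl1* at 298 by log2 difference, and the median of those 787 was 1.83. No gene of the 3 lay near the threshold of 1. With bulk RNA, more cells that express a gene and more mRNA in each cell cannot be told apart.

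For all 3 genes the *Irf8*-OE samples lay further apart than counting error, for *Cxcl1* through replicate 1 only. *Cxcl1* rested on 98 and 129 reads in the controls and on 461, 578 and 604 in *Irf8*-OE, whereas *Cxcl2* rested on at least 656 reads in every sample. The exact 95% Poisson intervals of *Cxcl2* were 3091 to 3309, 3502 to 3731 and 4236 to 4497 normalized counts in *Irf8*-OE replicates 1, 2 and 3, and none of them overlapped. Those of *Cxcl5* did not overlap either, at 1302 to 1446, 1461 to 1610 and 1750 to 1919. Those of *Cxcl1* overlapped between replicates 2 and 3, at 497 to 585 and 559 to 657, and replicate 1 lay below both at 402 to 484. The coefficients of variation in *Irf8*-OE were alike, 15.7% for *Cxcl1*, 15.9% for *Cxcl2* and 14.8% for *Cxcl5*.

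All 3 genes were lowest in *Irf8*-OE replicate 1 and highest in replicate 3, and by almost the same factor. The ratio of replicate 3 to replicate 1 was 1.37 for *Cxcl1*, 1.36 for *Cxcl2* and 1.34 for *Cxcl5*. Of 438 listed genes with a mean of at least 200 normalized counts, the median ratio was 1.01 and the middle 5th to 95th percentile range was 0.771 to 1.37, and 6.16% had a ratio at or above the lowest of the 3. The same order of lowest and highest sample was found in 32.2% of the 438 genes. The Y-linked *Ddx3y*, *Eif2s3y*, *Kdm5d* and *Uty* are among the 438 and, at 0 in *Irf8*-OE, have no ratio. The median and the percentile range leave them out, whereas the 6.16% and 32.2% are shares of all 438. *Il6*, an inflammatory cytokine gene that was lower in *Irf8*-OE, had a ratio of 1.31. *Irf8* went the other way, with a ratio of 0.843, as did the macrophage markers *Apoe* at 0.758 and *C1qa* at 0.806 and the stromal marker *Col1a1* at 0.827. Stromal markers were divided. From replicate 1 to replicate 3, *Col1a2* fell from 4065 to 3598 normalized counts, *Sparc* had 3037 and 3028, and *Postn* rose from 505 to 562. The lowest of the named genes was the acute-phase gene *Saa3* at 0.599. With 3 samples this is a description, and the genes set beside the chemokines were picked after their values were seen.

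**Figure D2:**
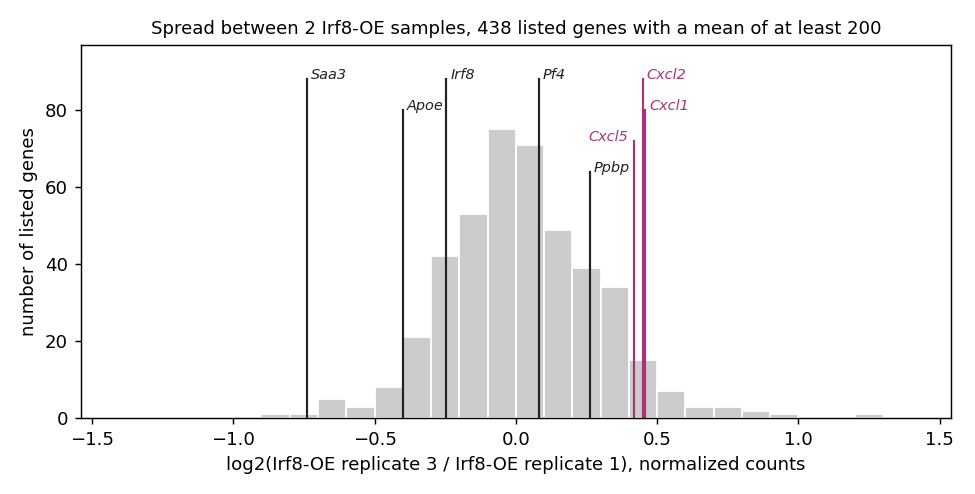
Histogram of the log2 ratio of *Irf8*-OE replicate 3 to replicate 1 for the 438 listed genes with a mean of at least 200 normalized counts, where the y axis counts genes and the vertical lines mark named genes. *Cxcl1*, *Cxcl2* and *Cxcl5* sit together near the upper end, at ratios of 1.34 to 1.37, while *Irf8* (0.843) and *Saa3* (0.599) lie below 1.

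The proportions among the 3 chemokine genes shifted only slightly between groups. Divided by gene length, *Cxcl2* made up 63.4% ± 2.38 (SD, n = 2) of their summed level in the controls and 61.4% ± 0.308 (SD, n = 3) in *Irf8*-OE. The share of *Cxcl5* was 25.6% ± 2.00 and 28.9% ± 0.264, and that of *Cxcl1* was 11.0% ± 0.378 and 9.63% ± 0.382. The order per kilobase was thus *Cxcl2*, *Cxcl5* and *Cxcl1* in both groups, with means of 359, 146 and 62.4 normalized counts per kilobase in the controls and 1802, 848 and 282 in *Irf8*-OE, and the sample ranges of neighbours in this order did not overlap in either group. The lengths are those of the authors' table, in which the 1875 bases of *Cxcl1* and the 2068 bases of *Cxcl2* cover the whole gene, introns included. With the length of the spliced transcript the shares of *Cxcl2*, *Cxcl5* and *Cxcl1* were 69.5%, 17.8% and 12.7% in the controls.

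Within a sample, *Cxcl2* exceeded *Cxcl1* by 2.73 and 2.59 on the log2 scale of levels in the controls and by 2.85, 2.74 and 2.85 in *Irf8*-OE. The 2 groups nearly touched, with a change in the mean of 0.15. *Cxcl5* exceeded *Cxcl1* by 1.16 and 1.25 in the controls and by 1.63, 1.51 and 1.59 in *Irf8*-OE, a change of 0.37 with no overlap. *Cxcl2* exceeded *Cxcl5* by 1.57 and 1.34 in the controls and by 1.22, 1.24 and 1.25 in *Irf8*-OE, and the difference between the 2 controls was there larger than the change of −0.22. These differences compare genes in the same sample, so a size factor enters them only through the pseudocount of 1.

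The fourth listed CXCR2 ligand gene, *Ppbp*, encodes the platelet basic protein from which CXCL7 is cut. It had 60.7 and 73.9 normalized counts in the controls and 366, 407 and 439 in *Irf8*-OE, with means of 67.3 ± 9.34 (SD, n = 2) and 404 ± 36.5 (SD, n = 3) and a log2 difference of 2.57 ± 0.14 (SE). It lies 6.89 kb from *Cxcl5* and followed that gene closely, with a log2 level minus that of *Cxcl5* of −2.01 and −1.99 in the controls and of −1.90, −1.91 and −2.06 in *Irf8*-OE. The ratio of replicate 3 to replicate 1 was lower than for the 3 genes, at 1.199. The list of CXCR2 ligands and receptors had 9 genes, of which 4 are listed and 4 were called higher, as were 58.1% of all listed genes. Their median log2 difference was 2.42, against 1.83 over the 787 genes called higher. Because all 4, *Ppbp* included, are on a list selected on this same difference, nothing about the family is read from these values. Expression of *Cxcl3*, *Cxcl15*, *Cxcr1*, *Cxcr2* and *Ackr1*, which are not listed, was not analysed here.

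*Pf4*, next to *Ppbp*, encodes platelet factor 4, which does not carry the motif for CXCR2. It had higher counts than *Ppbp* but a smaller difference, from 1240 and 1118 to 2442, 2484 and 2583 normalized counts, a log2 difference of 1.09 ± 0.07 (SE) that fell to 0.78, below the threshold, with TMM scaling. Of the 7 protein-coding genes between *Cxcl5* and *Cxcl2* 5 are listed, and in the order along the chromosome of *Cxcl5*, *Ppbp*, *Pf4*, *Cxcl1* and *Cxcl2* their log2 differences were 2.53, 2.57, 1.09, 2.16 and 2.31. Reads of near-identical copies could be misassigned, and the spliced transcripts of *Cxcl1* and *Cxcl2* share no exact run longer than 23 bases at a read length of 150. *Cxcl2* and the unlisted *Cxcl3*, however, share an exact run of 110 bases, so the count of *Cxcl2* is uncertain where reads fell there.

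**Figure D3:**
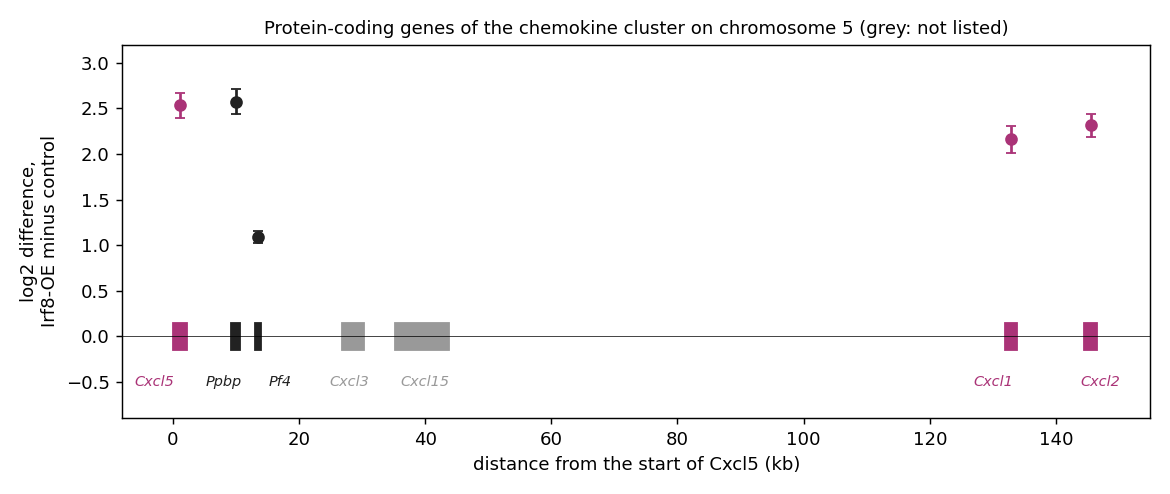
Map of the protein-coding genes from *Cxcl5* to *Cxcl2*, with distance from the start of *Cxcl5* in kilobases on the x axis, boxes to scale, and the log2 difference with its standard error as points on the y axis. *Cxcl5* (2.53), *Ppbp* (2.57), *Cxcl1* (2.16) and *Cxcl2* (2.31) lie at a similar height, *Pf4* (1.09) lies lower, and *Cxcl3* and *Cxcl15*, in grey, are not listed.

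Further along chromosome 5 lie the interferon-induced chemokine genes *Cxcl9* and *Cxcl10*, whose products attract T cells through CXCR3. *Cxcl10* had 56.2 and 42.2 normalized counts in the controls and 133, 118 and 165 in *Irf8*-OE, a log2 difference of 1.47 ± 0.21 (SE). *Cxcl9* was near the limit of detection, with 2 and 3 reads in the controls and 11, 15 and 22 in *Irf8*-OE, and no fold is given against controls at the floor of 3 reads. Of 38 chemokine ligand genes 12 are listed, 10 called higher and 2 lower, where 58.1% of all listed genes were called higher and 41% lower.

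The remaining CXC ligand genes were *Cxcl12*, the stromal ligand of CXCR4, with a log2 difference of 2.32 ± 0.14 (SE), and *Cxcl14*, with 1.35 ± 0.35 (SE). CC ligand genes were divided. *Ccl12*, which attracts monocytes through CCR2, was higher, from 24.7 and 24.9 to 149, 169 and 187 normalized counts. *Ccl24*, an eotaxin, was lower at −2.18 ± 0.22 (SE). *Ccl9* was lower at −1.04 ± 0.10 (SE), a call that was lost with quantile normalization (−0.06) and with scaling to the total of the listed genes (−0.39). Of the receptor genes, *Cx3cr1* for fractalkine was higher at 1.78 ± 0.11 (SE) and *Ccr6* for CCL20 at 1.64 ± 0.23 (SE). *Ccr3* was lower at −2.63, on 2, 24 and 8 reads in *Irf8*-OE. Calls were also lost for *Cxcl9*, for *Cxcl14* (0.89) and for *Ccr6* (0.97) with quantile normalization.

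**Figure D4:**
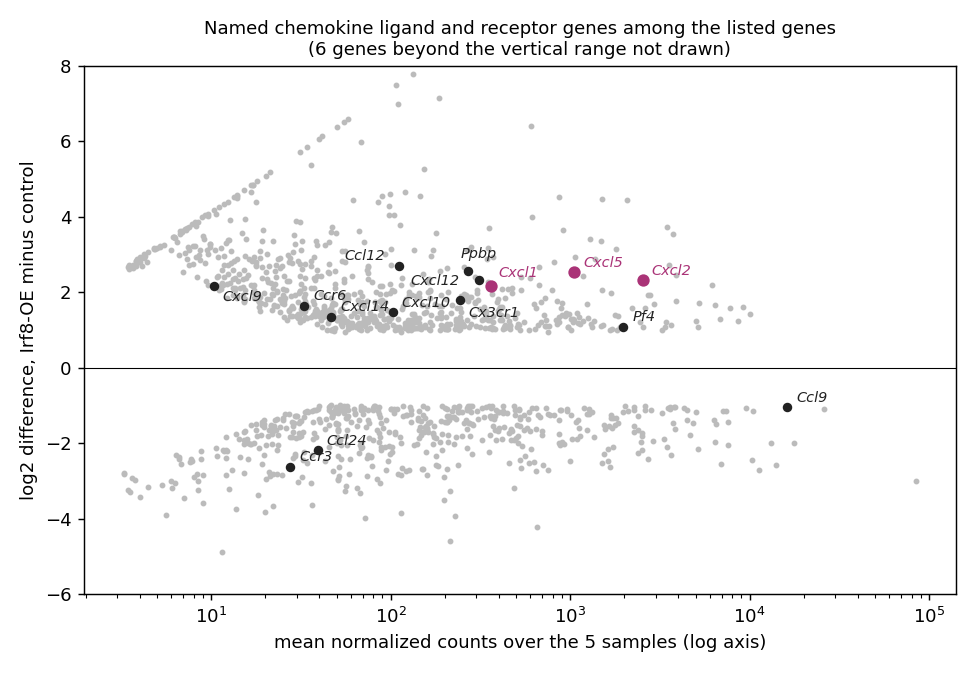
Log2 difference between *Irf8*-OE and control (y axis) against the mean normalized counts over the 5 samples (x axis, log scale) for the listed genes, in grey, with named chemokine ligand and receptor genes in black and *Cxcl1*, *Cxcl2* and *Cxcl5* in purple. The band without points around 0 is the authors' threshold. *Cxcl2* (2.31), *Cxcl5* (2.53) and *Cxcl1* (2.16) lie among the higher genes with many counts, whereas *Ccl9* (−1.04) has many counts and is lower.

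Genes that act upstream of these chemokines were looked up in the list. Of 14 genes for inducing cytokines and their receptors, such as IL-1, IL-17 and TNF-α, 0 are listed. Of 20 genes for Toll-like receptors and their adaptors 2 are listed, *Tlr5* at 1.35 ± 0.34 (SE) and *Tlr11* at 1.75 ± 0.30 (SE), both with at most 53 reads in any sample. Of 18 genes for NF-κB subunits and inhibitors 1 is listed, *Nfkbiz*, which encodes the nuclear cofactor IκBζ. It had 293 and 244 normalized counts in the controls and 797, 871 and 922 in *Irf8*-OE, a log2 difference of 1.68 ± 0.11 (SE). Its ratio of replicate 3 to replicate 1 was 1.16. It was lowest in replicate 1 and highest in replicate 3, as were 32.2% of the 438 listed genes with a mean of at least 200. A shared cause was not tested.

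Of 22 other inflammatory NF-κB target genes 6 are listed, 4 higher and 2 lower, where 58.1% of all listed genes were called higher, with a median log2 difference of 1.26 against 1.14 over all listed genes. *Ptx3*, which encodes a soluble pattern recognition protein, had 167 and 131 normalized counts in the controls and 831, 832 and 717 in *Irf8*-OE, and *Ptgs2*, which encodes cyclooxygenase 2, had 473 and 428 against 1008, 1087 and 1174. *Il6* was lower, with 804 and 715 in the controls and 318, 332 and 418 in *Irf8*-OE, a log2 difference of −1.10 ± 0.13 (SE). Of 16 immediate early genes 8 are listed and 8 were higher, with a median of 2.42. *Fos* rose from 503 and 496 to 5886, 5615 and 6166 normalized counts, while *Egr1* was higher by 2.72 ± 0.09 (SE) on the log2 scale.

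Decay of the 3 mRNAs is governed in part by their 3′ UTRs, and *Zfp36*, the gene of tristetraprolin, was the 1 gene listed of 9 for AU-rich decay. It had 1517 and 1643 normalized counts in the controls and 5355, 5375 and 5472 in *Irf8*-OE, a log2 difference of 1.77 ± 0.06 (SE). The 3′ UTR of *Cxcl1* held the pentamer ATTTA 7 times in 592 bases, that of *Cxcl2* 11 times in 734 bases, and that of *Cxcl5* 5 times in 1111 bases. These densities of 11.8, 15.0 and 4.50 per kilobase are at percentiles 99.2, 99.6 and 89.6 of 20055 protein-coding genes, whose median was 1.19, and the median of 1084 listed genes was 1.26. The heptamer TATTTAT, which includes ATTTA, occurred 6 times in *Cxcl1*, 7 times in *Cxcl2* and 1 time in *Cxcl5*, and 3.65% of all genes held at least 3. *Ppbp*, whose log2 difference was much the same as that of *Cxcl5*, had 1 ATTTA in 656 bases and 0 heptamers.

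Genes whose profile over the 5 samples was most like that of each chemokine gene were found by the root mean square difference of centred log2 levels. Most of such a profile is the difference between the groups, on which all listed genes were selected. Nearness therefore mainly means a similar log2 difference, and the median over the list includes genes that were lower in *Irf8*-OE. Shared regulation was not tested. For *Cxcl5* the nearest of the listed genes was its neighbour *Ppbp* at 0.059, against a median of 0.76 over the list, followed by *Dennd5b*, *Mal2*, *Chst10* and the stearoyl-CoA desaturase gene *Scd1* at 0.12. For *Cxcl1* the nearest were *Myct1* at 0.044, *Cxcl2* at 0.097, the guanylate cyclase subunit gene *Gucy1b1* at 0.11, the interferon-induced *Ifit3* and *Chst10*. For *Cxcl2* they were the interferon-induced GTPase gene *Iigp1* at 0.053, *Chst10*, *Cxcl1* at 0.097, *Ifi213* and *Dennd5b*. *Cxcl5* was at place 31 for *Cxcl1* and at place 10 for *Cxcl2*. Several of these genes have few reads, 3 and 4 in the controls for *Chst10*, and their profiles carry a large counting error.

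Markers of other cell types differed between the groups too, in a list of which 58.1% was called higher and 41% lower. The counts of markers in each direction are descriptions beside those shares. Of 16 neutrophil markers 6 are listed, 4 higher and 2 lower, and their summed level was 996 to 1065 normalized counts in control samples and 2244 to 2349 in *Irf8*-OE samples. *Mpo*, which early neutrophil precursors express, had 10.1 and 11.5 in the controls and 943 to 1048 in the *Irf8*-OE samples and accounts for much of that sum, whereas *Ly6g* and *Mmp9* were lower. Macrophage markers, 6 of 15 listed and 6 higher, summed to 4140 to 4324 in control samples and 21667 to 26514 in *Irf8*-OE samples. Stromal markers, 10 of 16 listed and 10 higher, summed to 3506 to 3608 and 13099 to 14412. Mast cell and basophil markers, 11 of 15 listed with 2 higher and 9 lower, summed to 235864 to 240340 and 36728 to 40524. Most of that sum was *Cpa3*, with means of 177303 in the controls and 22296 in *Irf8*-OE. The 2 higher genes went against the sum, *Mcpt8* with means of 178 and 1233 and *Prss34* with 118 and 1453. Monocyte markers, 3 of 8 listed with 1 higher and 2 lower, summed to 24814 to 25094 and 8238 to 8354. *F13a1* made up most of the control sum, with means of 20344 in the controls and 3714 in *Irf8*-OE. The higher gene was *Ly6c2*, with means of 1257 and 4045. B lineage markers, 5 of 10 listed and 5 higher, were low at 37.1 to 43.2 and 429 to 458, and *Jchain* and *Mzb1* had 0 reads in control replicate 1. Macrophages, neutrophils and fibroblasts can all express *Cxcl1* and *Cxcl2*, and the part of these cells in the chemokine values was not tested.

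The differences of the 3 chemokine genes kept their direction under every processing tried. The genes were selected for this contrast and their groups did not overlap. Omission of a sample, filters, pseudocounts and replicate blocks therefore could not reverse the direction, and nothing is read from its constancy. Scaling moved them most. The median log2 difference of all listed genes shifted by 0.65 with scaling to the total of the listed genes, by −0.36 with quantile normalization and by −0.31 with TMM, and the calls were then 797 higher and 276 lower, 509 and 522, and 589 and 558, against 787 and 556 as reported. With total scaling *Cxcl1*, *Cxcl2* and *Cxcl5* had log2 differences of 2.81, 2.97 and 3.19, with TMM of 1.85, 2.00 and 2.22, and with quantile normalization of 2.04, 2.57 and 2.65.

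**Figure D5:**
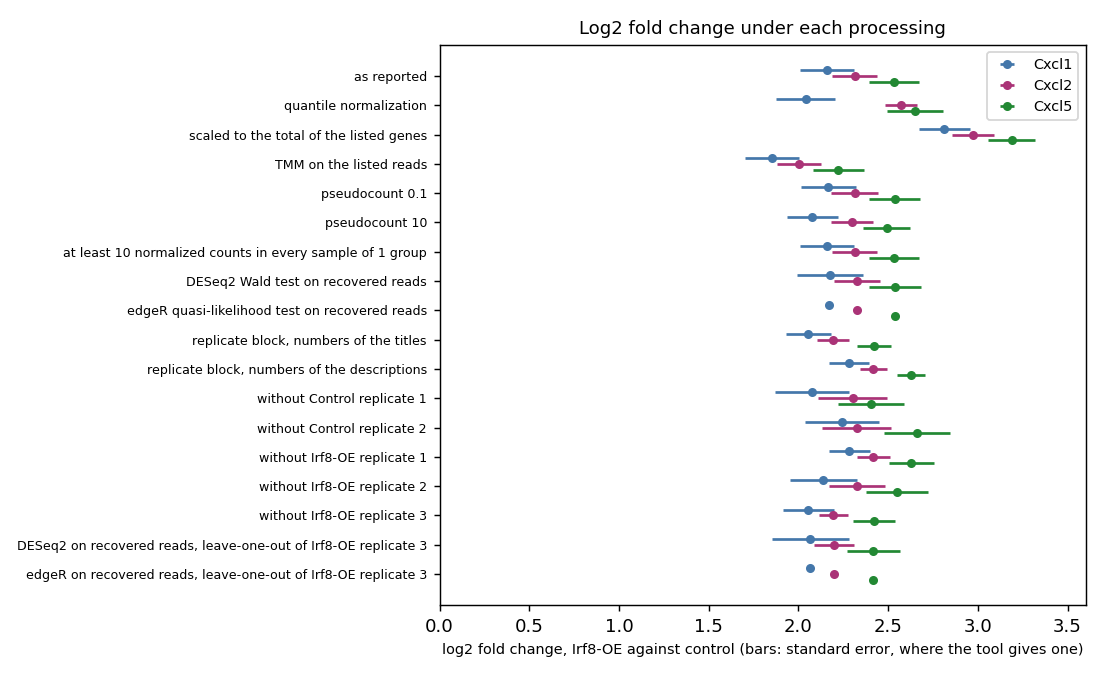
Log2 difference of *Cxcl1*, *Cxcl2* and *Cxcl5* (x axis, starting at 0) under each processing alternative (rows), with bars of 1 standard error where the tool gives one. All points lie above 0, between 1.85 for *Cxcl1* with TMM and 3.19 for *Cxcl5* with scaling to the total, and *Cxcl5* is the highest and *Cxcl1* the lowest of the 3 in each row.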

How the data were processed

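Polyadenylated mRNA was sequenced as 150-base paired ends on an Illumina NovaSeq. The deposited table holds, for the 1355 genes that passed the authors' thresholds, normalized counts (here a signal: reads divided by a size factor), annotation, and the authors' log2 fold changes and p-values, which were not used. The submitters' processing notes name fastp, HISAT2 2.0.5, featureCounts 1.5.0-p3, DESeq2 1.20.0, edgeR 3.22.5 and mm10. Strandedness is not given in the sources used here.

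Normalized counts were whole multiples of 1 step per sample (tolerance 0.05 reads), which gave the reads. limma 3.58.1 (R 4.3.3, empirical Bayes with trend) was fitted to log2(normalized counts + 1) over all 1355 genes without covariates. A call required an absolute log2 difference above 1 and an adjusted p-value (Benjamini-Hochberg) under 0.05. DESeq2 1.42.0 and edgeR 4.0.16 on recovered reads, other scalings, pseudocounts and filters, replicate blocks and omission of each sample were alternatives, and scripts were tested on simulated data. Named genes were Cxcl1, Cxcl2, Cxcl5, Irf8, listed chemokine and receptor genes, up to 4 most abundant listed genes of each other list, listed genes within 2 Mb, and the 5 nearest profiles; 1 of them is not reported here. Members and lists were chosen with earlier results of these data known.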

Additional observations from a re-analysis of the deposited data

How the results depend on the processing

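The groups did not overlap, so omission of a sample, filters, pseudocounts and replicate blocks could not turn a difference below 0. All 51 alternative values of the 3 log2 differences were above 0, and 44 moved by less than 1 SD. The others were those with total scaling (2.81 for *Cxcl1*, 2.97 for *Cxcl2*, 3.19 for *Cxcl5*), with TMM (1.85, 2.00 and 2.22) and, for *Cxcl2*, with quantile normalization (2.57). Leaving out each sample in turn gave 2.05 to 2.28 for *Cxcl1*, 2.19 to 2.42 for *Cxcl2* and 2.40 to 2.66 for *Cxcl5*. With a replicate block by the numbers in the titles the values were 2.05, 2.19 and 2.42, and by those in the descriptions 2.28, 2.42 and 2.63. These are the same estimates as without *Irf8*-OE replicate 3 and without *Irf8*-OE replicate 1, and thus not separate checks. The filter on low counts left the 3 values unchanged. Same-numbered samples did not deviate together (r of 0.01 and 0.05 by titles, −0.05 and −0.04 by descriptions, over 1110 genes). With 2 controls, the deviation of each is exactly the opposite of the other's, so these values cannot settle whether the samples were paired. The block left 1319 and 1271 genes called. The count of called genes, 1343, fell to 518 at an absolute log2 difference above 2. It was 1031 to 1354 under the other settings, and limma called 1238 to 1318 without 1 sample.

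Without division by length the share of *Cxcl1* was 10.3% in the controls and 9.07% in *Irf8*-OE, that of *Cxcl2* in *Irf8*-OE 63.8% and that of *Cxcl5* in *Irf8*-OE 27.1%. With spliced length, an alternative chosen after seeing the data, as were the tests on reads without *Irf8*-OE replicate 3, the shares in controls and *Irf8*-OE were 12.7% and 11.3% for *Cxcl1*, 69.5% and 68.3% for *Cxcl2*, and 17.8% and 20.4% for *Cxcl5*. The table holds selected genes from 2 control samples, which limits every value, and reads over unlisted genes were not analysed here.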

Other observations

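*Stbd1*, a glycogen-binding protein gene and the other listed gene within 2 Mb of the 3 chemokine genes beside the chemokine genes already described, had 59.6 and 48.9 normalized counts in the controls and 116, 113 and 117 in *Irf8*-OE, a log2 difference of 1.08 ± 0.16 (SE).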
